A study of Solea senegalensis with 15 samples.

Results

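The insulin-like growth factor (Igf) genes and the genes of their binding proteins (Igfbp) were followed in the testis of Senegalese sole (*Solea senegalensis*), a flatfish. Members were chosen by gene symbol (igf1, igf2 or igf3, or igfbp1 to igfbp6, with or without the letter a or b of a duplicated fish gene) and by a minimum of 50 reads in at least 1 fish. This gave 5 genes of the 28921 in the count table, namely the ligand genes *igf1* and *igf2b* and the binding protein genes *igfbp2a*, *igfbp5a* and *igfbp6b*. All 5 genes with a matching symbol passed the minimum, and 21227 genes of the table passed it in all. Genes such as *igf3*, *igfbp1* and *igfbp3* were not analysed here, since no row carried their symbol, and rows that carry only a locus number could not be searched by name.

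Igf1 and Igf2 are secreted hormones that act through the Igf1 receptor, a tyrosine kinase that signals through adaptor proteins to PI3K, Akt and mTOR, and they promote growth, survival and division of cells. The binding proteins hold the ligands with high affinity outside the cell, which prolongs their life and limits or directs their access to the receptor, and several of them also attach to cell surfaces or matrix. In vertebrates most circulating Igf1 comes from the liver under growth hormone, while the gonads also make Igfs locally. In zebrafish, a further, gonadal Igf (Igf3) is known to relay part of the action of follicle-stimulating hormone (Fsh) on spermatogonia.

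The question asked of these genes was whether their transcripts differed after long treatment with either gonadotropin. The males were F1 offspring of wild parents, 2 years old, and 8 per group received an injection into muscle every week for 6 weeks. The groups were saline, recombinant sole Fsh at 18 µg/kg (rFsh) and recombinant sole luteinizing hormone (Lh) at 18 µg/kg (rLh). RNA came from pieces of whole testis, and 5 libraries per group were analysed, each from 1 male (15 in all, named here by group and fish number). Both treatments are compared with the same 5 saline fish, so the comparisons with saline are not independent of each other. In pieces of whole tissue, fewer cells of a type and less RNA per cell cannot be told apart.

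The depth was 50.7 to 110 M counted reads a fish, with 67.8 to 110 M in saline, 50.7 to 76.2 M after rFsh and 53.2 to 64.5 M after rLh, so the saline libraries were deeper on average, with overlap between saline and rFsh. The label testis was checked against germ and somatic cell markers. Of the listed markers of spermatogonia, 12 of 12 in the table were tested and summed to 1405 to 2171 CPM (counts per 1 M library reads) over the 15 fish, and 10 of 12 Sertoli cell markers summed to 2510 to 3891 CPM, with 2 more at 0 in every fish. The study's own tables rest on 12 of the 15 fish. No label names the fish left out. From mean counts they were inferred to be saline 68, rFsh 62 and rLh 68. Fold changes of the members are also given over those 12, while fold changes of other genes are over all 15. Saline 68 and rLh 67 stood apart from their groups in *igfbp5a*, and the fold changes of that gene are given with and without them.

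In the genome assembly IFAPA_SoseM_1, *igf1* lies on linkage group 3 from 3269540 to 3285144 and *igf2b* on linkage group 10 from 17329479 to 17337758, with the tyrosine hydroxylase gene *th* 1495 bases away as its neighbour. *igfbp2a* and *igfbp5a* are next to each other on linkage group 2, from 31131808 to 31147931 and from 31150499 to 31159830, with 2567 bases between them. *igfbp6b* lies on linkage group 11 from 14720260 to 14724537. None of the 5 overlaps another annotated gene. The genes differ in length and no exon lengths were at hand, so the levels below, in CPM with TMM library factors, are compared between fish and not between genes.

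None of the 5 genes passed the test in any of the 3 comparisons over the 15 fish (edgeR quasi-likelihood test, Benjamini-Hochberg adjusted p over 21227 genes, threshold 0.05). The binding protein gene *igfbp5a* had the largest difference of the 5 after both hormones, at 1.45 times the saline level after rFsh and 1.76 times after rLh, and *igf2b* lay between 28.5 and 45.6 CPM in all fish. Among all tested genes edgeR called 10 after rFsh (0.0471%), 0 after rLh (0%) and 0 between the hormones (0%). With an unadjusted p below 0.05 it counted 17.2%, 13.2% and 9.91% of all genes in these comparisons, and of the 5 members 0, 1 (*igfbp5a*) and 0. DESeq2 on the same fish called 622 genes after rFsh (2.93%), 47 after rLh (0.221%) and 135 between the hormones (0.636%), and 0 members in each. Of the 5 members, 4 lay above 0 on the log2 scale after rFsh, 5 after rLh and 5 in rLh against rFsh, where 51.1%, 51.6% and 47.4% of all tested genes did. The median log2 fold change of the members was 0.15 after rFsh and 0.37 after rLh, beside 0.01 over all tested genes in both comparisons.

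**Figure D1:**
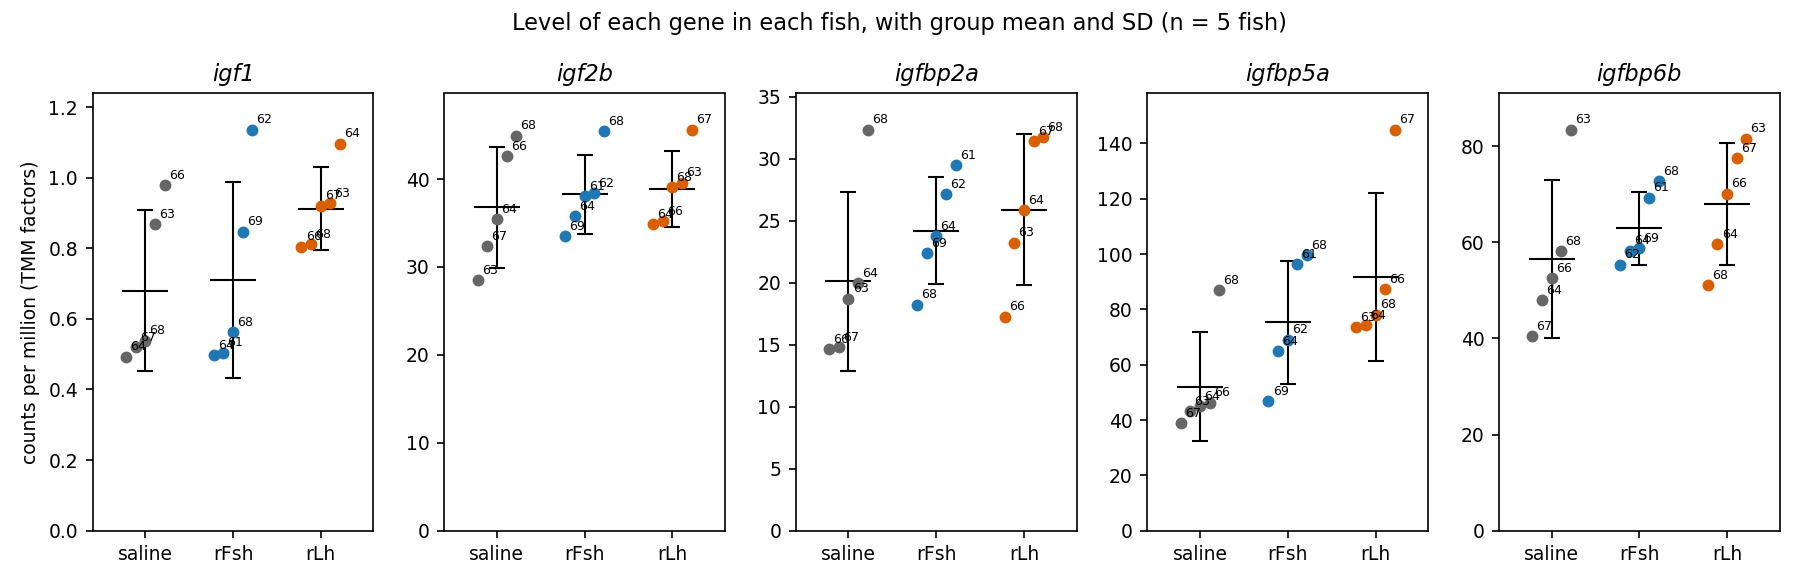
Level of the 5 genes in each fish in CPM (vertical axes start at 0), by group, with fish numbers beside the points and the group mean and SD in black (n = 5 fish per group). In *igfbp5a* saline 68 (86.9) lies above the other 4 saline fish and rLh 67 (145) above the other 4 rLh fish, while in *igf2b* all 3 groups overlap.

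The ligand genes are taken first. *igf1*, the growth hormone target, was covered by few reads, 30 to 103 per fish. Its level in saline was 0.869 CPM in fish 63, 0.493 in 64, 0.980 in 66, 0.519 in 67 and 0.539 in 68. After rFsh it was 0.504 in 61, 1.14 in 62, 0.498 in 64, 0.563 in 68 and 0.847 in 69. After rLh it was 0.929 in 63, 1.096 in 64, 0.804 in 66, 0.920 in 67 and 0.812 in 68. Cut at the widest gap of these same levels, the 15 fish gave a lower set of 6 (0.493 to 0.563 CPM) and an upper set of 9 (0.804 to 1.14 CPM). The 5 rLh fish were all in the upper set, with 2 of 5 saline and 2 of 5 rFsh fish. The cut was drawn from the values it describes, and whether the gap exceeds chance was not tested. The mean was 0.680 ± 0.227 CPM for saline, 0.7095 ± 0.278 for rFsh and 0.912 ± 0.118 for rLh (SD, n = 5).

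The difference in *igf1* was not past the threshold in any comparison. The log2 fold change was -0.01 ± 0.27 (SE) after rFsh, with an edgeR adjusted p of 0.986 and a 95% interval of -0.59 to 0.57. After rLh it was 0.37 ± 0.26 (edgeR adjusted p = 0.531, interval -0.18 to 0.93), and between rLh and rFsh it was 0.39 ± 0.28 (edgeR adjusted p = 0.643). Over the 12 fish the value after rFsh was -0.30 ± 0.29 and that between the hormones 0.63 ± 0.30 (edgeR adjusted p = 0.607 and 0.314). As a multiple of the saline level, the 95% intervals run from 0.662 to 1.48 after rFsh and from 0.883 to 1.90 after rLh. A change between these bounds could not be told from none with these fish, and the part of read depth in this was not tested.

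*igf2b*, the other ligand gene, had 2029 to 4478 reads per fish. Saline fish had 28.5 CPM in 63, 35.4 in 64, 42.6 in 66, 32.4 in 67 and 44.9 in 68. The rFsh fish had 38.1 in 61, 38.4 in 62, 35.8 in 64, 45.5 in 68 and 33.5 in 69, and the rLh fish 39.6 in 63, 34.9 in 64, 35.2 in 66, 45.6 in 67 and 39.1 in 68. All groups overlapped, and the highest fish of each (saline 68, rFsh 68 and rLh 67) were within 1 CPM of each other, while saline 63 and 67 lay below every treated fish. The means were 36.8 ± 6.88, 38.2 ± 4.49 and 38.9 ± 4.34 CPM (SD, n = 5). Its log2 fold change was 0.06 ± 0.12 after rFsh and 0.08 ± 0.12 after rLh (edgeR adjusted p = 0.854 and 0.797). These are the narrowest intervals of the 5 genes over the 15 fish, -0.21 to 0.32 and -0.18 to 0.34. Their upper ends in that fit are a 1.25-fold and a 1.27-fold increase. Over the 12 fish the values were larger, 0.14 ± 0.14 and 0.17 ± 0.14 (edgeR adjusted p = 0.620 and 0.505). The biological coefficient of variation of *igf2b* was 0.146, and 36.7% of tested genes varied less, while *igf1* (0.290) and *igfbp5a* (0.282) varied more than 80.6% and 79.1% of them.

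Among the binding protein genes, *igfbp5a* encodes a protein known in mammals to bind matrix and cell surfaces as well as the ligands. In saline its level was 43.4 CPM in fish 63, 45.1 in 64, 46.3 in 66, 38.9 in 67 and 86.9 in 68. After rFsh it was 96.3 in 61, 69.1 in 62, 65.0 in 64, 99.6 in 68 and 46.8 in 69. After rLh it was 73.7 in 63, 74.2 in 64, 87.4 in 66, 145 in 67 and 78.1 in 68. In saline, 4 of 5 fish lay below every treated fish, rFsh 69 being the nearest above them, and saline 68 lay above 3 of 5 rFsh and 3 of 5 rLh fish, so the groups overlapped through that fish. The saline mean of 52.1 ± 19.7 CPM compares with 75.4 ± 22.3 for rFsh and 91.7 ± 30.3 for rLh (SD, n = 5).

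Over all 15 fish, *igfbp5a* differed from saline by 0.53 ± 0.26 on the log2 scale after rFsh (adjusted p = 0.302 by edgeR, 95% interval -0.01 to 1.08). After rLh the difference was 0.82 ± 0.26 (adjusted p = 0.344 by edgeR, 95% interval 0.27 to 1.36), or 1.21- to 2.57-fold before any adjustment for the number of genes. Between rLh and rFsh it was 0.28 ± 0.26 (adjusted p = 0.716 by edgeR, interval -0.26 to 0.83). With DESeq2 the values after rFsh and rLh were 0.53 and 0.81 with adjusted p of 0.243 and 0.119. The difference in either comparison thus did not pass with all fish by either tool.

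The call on *igfbp5a* turned on which fish and which tool were used. Without saline 68 the log2 fold change was 0.80 ± 0.23 after rFsh and 1.08 ± 0.23 after rLh (edgeR adjusted p = 0.0652 and 0.122). Without rLh 67 the value after rLh was 0.59 ± 0.24 (edgeR adjusted p = 0.608) and that between the hormones was 0.06. Each of these fish alone therefore moved the value, in opposite directions. With both left out, a choice made after the values were seen, the fold changes were 0.80 ± 0.18 after rFsh and 0.85 ± 0.19 after rLh (edgeR adjusted p = 0.0488 and 0.291). In that setting *igfbp5a* was 1 of 271 genes called after rFsh (1.28% of all tested), and no gene was called after rLh (0%), where 13.8% of genes had an unadjusted p below 0.05.

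Over the 12 fish inferred for the study's tables, the saline fish lay between 38.9 and 46.3 CPM. They were below the 4 rFsh fish (46.8 to 99.6) and the 4 rLh fish (73.7 to 145). *igfbp5a* was the member whose groups did not overlap there, higher after each hormone, as were 3.07% of all tested genes after rFsh and 7.15% after rLh. The log2 fold change was 0.83 ± 0.25 after rFsh and 1.14 ± 0.25 after rLh, with adjusted p of 0.126 and 0.0554 by edgeR. DESeq2 on the 12 fish called it after both hormones, at 0.83 and 1.13 (adjusted p = 0.0277 and 0.000848). The same fit called 5.87% of all genes after rFsh, 10.6% after rLh and 3.19% between the hormones. It called no other member, and none between the hormones, but gave no adjusted p to *igf1* after rLh, which was 1 of 3306 genes left without one in that comparison and so could not be called.

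**Figure D2:**
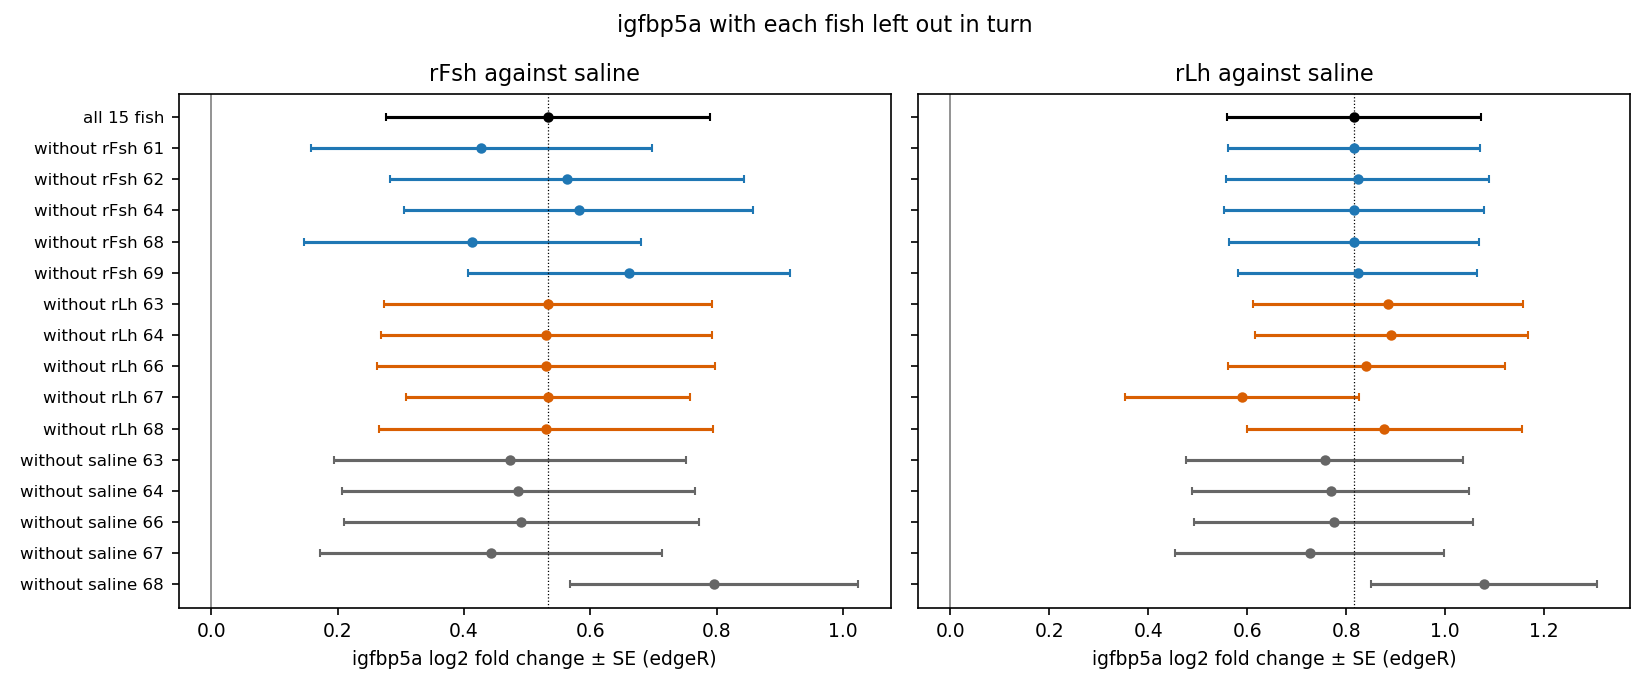
Log2 fold change of *igfbp5a* (horizontal axis, edgeR, bars are 1 SE) after rFsh and after rLh against saline, over all 15 fish (black, dotted line) and with each fish left out in turn (rows, coloured by the group of that fish). Every value stays above 0, from 0.41 to 0.80 after rFsh and from 0.59 to 1.08 after rLh, and the extremes come from leaving out rFsh 68, rLh 67 or saline 68.

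*igfbp2a*, the neighbour of *igfbp5a* on linkage group 2, encodes another binding protein of both ligands. Its saline levels were 18.7 CPM in fish 63, 20.0 in 64, 14.7 in 66, 14.8 in 67 and 32.4 in 68. After rFsh they were 29.5 in 61, 27.1 in 62, 23.8 in 64, 18.2 in 68 and 22.4 in 69, and after rLh 23.2 in 63, 25.8 in 64, 17.3 in 66, 31.4 in 67 and 31.8 in 68. Saline 68 had the highest level of all 15 fish and the other 4 saline fish lay at or below 20.0, so here too the overlap of the groups was widest through that fish. The means were 20.1 ± 7.23, 24.2 ± 4.34 and 25.9 ± 6.06 CPM in saline, rFsh and rLh (SD, n = 5). The log2 fold change was 0.27 ± 0.22 after rFsh and 0.37 ± 0.22 after rLh (edgeR adjusted p = 0.536 and 0.459), with 95% intervals of -0.19 to 0.73 and -0.09 to 0.83. Over the 12 fish it was 0.47 ± 0.19 and 0.53 ± 0.19 (edgeR adjusted p = 0.197 and 0.127), which did not pass either.

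The adjacent genes did not keep a fixed proportion. The number of *igfbp5a* reads per *igfbp2a* read in the same fish was 2.26 to 3.16 in saline, with 2.69 in saline 68, the fish in which both were high. After rFsh it ran from 2.09 in fish 69 to 5.46 in fish 68, and after rLh from 2.46 in fish 68 to 5.07 in fish 66. In rFsh 68 and rLh 66, *igfbp5a* was high while *igfbp2a* was the lowest of its group. This ratio depends on gene length and says nothing of which gene is expressed more.

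*igfbp6b* encodes a binding protein whose mammalian counterpart prefers Igf2 to Igf1. Saline fish had 83.4 CPM in 63, 47.9 in 64, 52.5 in 66, 40.4 in 67 and 58.2 in 68. The rFsh fish had 69.3 in 61, 55.4 in 62, 58.2 in 64, 72.7 in 68 and 58.8 in 69, and the rLh fish 81.5 in 63, 59.6 in 64, 70.1 in 66, 77.5 in 67 and 51.01 in 68. The highest fish of all was saline 63, while saline 68, high in the other binding protein genes, was unremarkable. The means were 56.5 ± 16.4, 62.9 ± 7.63 and 67.96 ± 12.6 CPM (SD, n = 5). The log2 fold change was 0.15 ± 0.17 after rFsh and 0.27 ± 0.17 after rLh (edgeR adjusted p = 0.676 and 0.496), with intervals of -0.21 to 0.51 and -0.10 to 0.63. Leaving out saline 63 raised both values, to 0.34 ± 0.14 and 0.45 ± 0.14 (edgeR adjusted p = 0.339 and 0.377). Over the 12 fish, which keep saline 63, they were 0.21 ± 0.19 and 0.37 ± 0.19 (edgeR adjusted p = 0.579 and 0.269). None of these passed. Saline 63 also had 2.92 *igfbp6b* reads per *igf2b* read, against 1.23 to 1.35 in the other saline fish, 1.44 to 1.82 after rFsh and 1.31 to 2.06 after rLh.

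**Figure D3:**
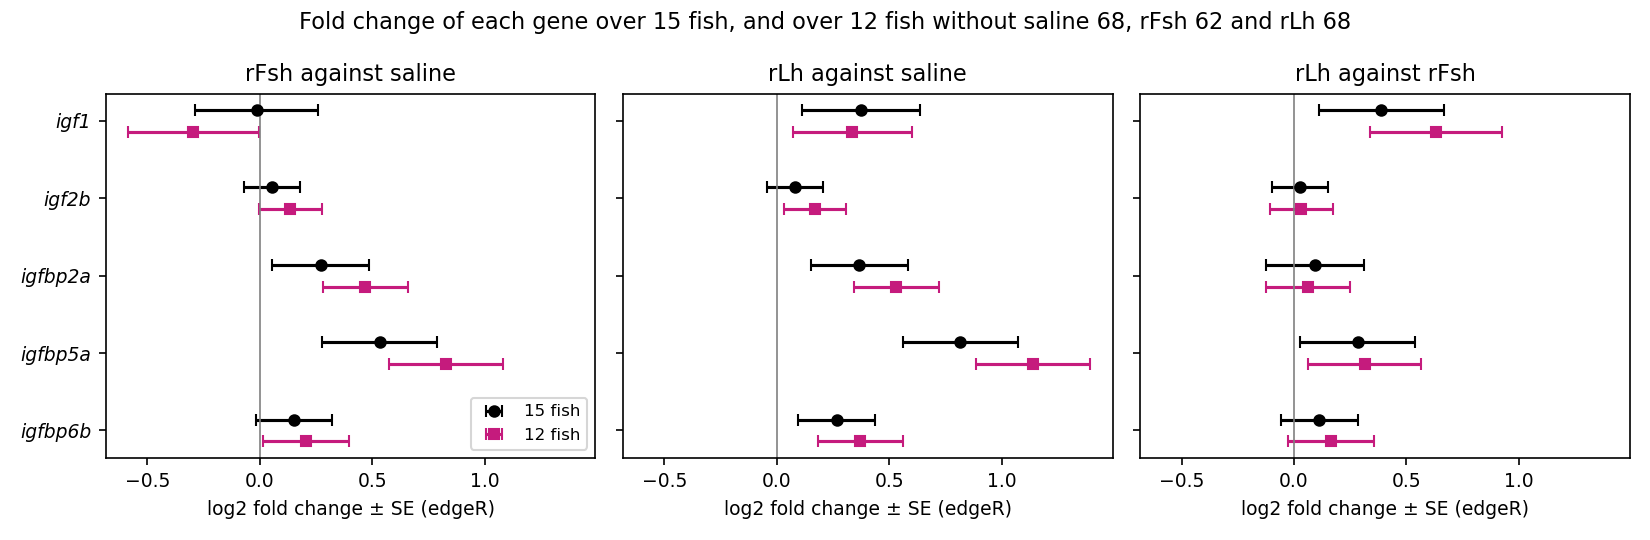
Log2 fold change of each gene (horizontal axis, edgeR, bars are 1 SE) in the 3 comparisons, over all 15 fish (black circles) and over 12 fish without saline 68, rFsh 62 and rLh 68 (magenta squares). *igfbp5a* lies farthest from 0 against saline, at 0.53 and 0.82 over 15 fish and 0.83 and 1.14 over 12, and *igf2b* has the shortest bars.

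No member passed the test of one hormone against the other. In rLh against rFsh the log2 fold changes of the 5 were 0.02 ± 0.12 for *igf2b*, 0.09 ± 0.22 for *igfbp2a*, 0.11 ± 0.17 for *igfbp6b*, 0.28 ± 0.26 for *igfbp5a* and 0.39 ± 0.28 for *igf1*, with edgeR adjusted p from 0.643 to 0.957. The intervals reach from -0.24 to 0.29 for *igf2b* and from -0.20 to 0.98 for *igf1*, so an *igf1* level after rLh of up to 1.97 times that after rFsh is within them.

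Across the 15 fish, pairs of members were compared on the log2 CPM scale, 10 pairs in all (permutation tests, two-sided, Benjamini-Hochberg over the 10). The fish share library preparation and differ in depth, and *igf1*, whose levels lay on both sides of a gap, is left out of the values given. The closest pair was *igf2b* with *igfbp5a* (Pearson r = 0.685, permutation p = 0.00508, adjusted p = 0.0508, and Spearman rho = 0.650, permutation p = 0.0104, adjusted p = 0.104). Without the 2 fish farthest from the median of *igf2b* r was 0.529, and with group means removed it was 0.742. The neighbours *igfbp2a* and *igfbp5a* had r = 0.625 (permutation p = 0.0138, adjusted p = 0.0689) and rho = 0.507 (permutation p = 0.0565, adjusted p = 0.282), with r = 0.449 without the 2 farthest fish and 0.492 with group means removed. No pair passed 0.05 after adjustment.

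Testis pieces differ in the share of their cell types, so the members were set against 12 lists of cell type markers, whose score in a fish is the average of the centred log2 CPM of the listed genes. Of 60 pairs of a member and a list, *igfbp5a* with the Leydig cell list was the closest (r = 0.853, permutation p = 5.0e-05, adjusted p = 0.0030, and rho = 0.832, permutation p = 0.00020, adjusted p = 0.0120). Leydig cells lie between the tubules, make androgens and carry the Lh receptor, which mature spermatids of this species also express according to the paper. The relation was r = 0.811 without the 2 fish of the most extreme score, 0.855 without saline 68 and 0.888 with group means removed, so it held among fish of the same treatment. With *igf1* set aside, the next by r was *igf2b* with the same list (r = 0.664, permutation p = 0.00675, adjusted p = 0.112, and rho = 0.646, permutation p = 0.0115, adjusted p = 0.138), which did not pass, nor did any other pair of these 4 genes. Among these were the other 2 binding protein genes with the Leydig cell list. *igfbp6b* had r = 0.630 with it (permutation p = 0.0119, adjusted p = 0.112) and *igfbp2a* r = 0.51 (permutation p = 0.0535, adjusted p = 0.292). Over the 12 fish the r of *igfbp6b* was 0.738 and that of *igf2b* 0.626. The fibroblast list had r = 0.620 with *igfbp5a* (permutation p = 0.0136, adjusted p = 0.112). That r was 0.850 without the 2 fish of the most extreme score and 0.632 with group means removed. With *igf2b* the fibroblast list had r = 0.646 (permutation p = 0.00904, adjusted p = 0.112) and rho = 0.671 (permutation p = 0.00743, adjusted p = 0.138).

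**Figure D4:**
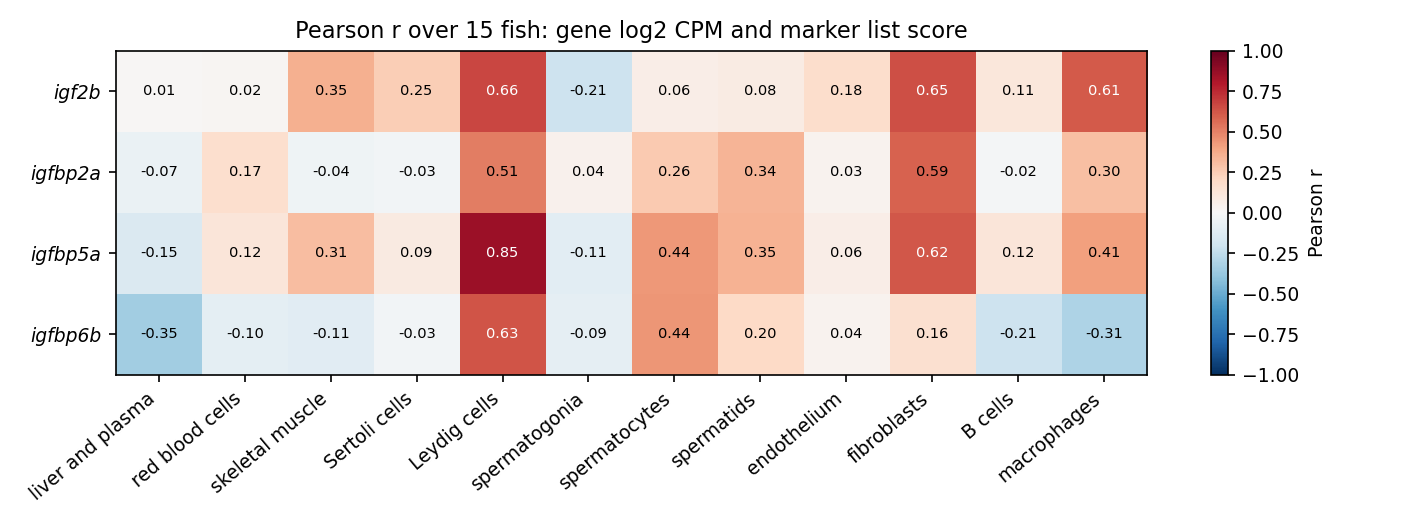
Pearson r over 15 fish between the log2 CPM of 4 members (rows) and the score of 12 cell type marker lists (columns), from -1 in blue to 1 in red. *igf1* is left out because its levels lay on both sides of a gap. The darkest cell is *igfbp5a* with Leydig cells at 0.853.

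The Leydig cell list holds 13 symbols, of which 6 were in the table and tested, none at 0 in every fish. They were *star* (cholesterol import into mitochondria), *hsd3b1*, *hsd11b2* and *hsd17b3* (steroid enzymes), *lhcgr* (the Lh receptor) and *insl3* (a relaxin family hormone of Leydig cells). Their summed level was 862 to 2397 CPM in saline, 805 to 3020 after rFsh and 1547 to 3134 after rLh. In the log2 score, saline fish had -0.018 in 63, -0.329 in 64, -0.354 in 66, -0.881 in 67 and 0.564 in 68. The rFsh fish had 0.176 in 61, 0.160 in 62, -0.183 in 64, 0.731 in 68 and -0.799 in 69, and the rLh fish 0.137 in 63, 0.124 in 64, 0.012 in 66, 0.769 in 67 and -0.110 in 68. The 3 fish with the highest score, rLh 67, rFsh 68 and saline 68, were the top *igfbp5a* fish of their groups, and the fish with the lowest scores, saline 67 and rFsh 69, were the bottom *igfbp5a* fish of theirs. In rLh the low ends differed. The lowest score there was that of fish 68, with 78.1 CPM of *igfbp5a*. The lowest *igfbp5a* level was that of fish 63 (73.7 CPM), with a score of 0.137.

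None of the 6 listed Leydig genes passed in any comparison by edgeR or DESeq2, over 15 or 12 fish. Their median log2 fold change was 0.26 after rFsh and 0.48 after rLh. With an unadjusted p below 0.05, edgeR over 15 fish gave 0 higher and 1 lower after rFsh (*hsd17b3*), and 0 after rLh. Of all tested genes, 17.2% had such a p after rFsh and 13.2% after rLh. For *insl3* the saline fish had 231, 127, 114, 114 and 543 CPM (63, 64, 66, 67 and 68), so saline 68 was again the highest. The log2 fold change of *insl3* was 0.94 ± 0.47 after rFsh and 0.68 ± 0.47 after rLh (edgeR adjusted p = 0.321 and 0.526). Its mean over 15 fish was 226 ± 184 CPM for saline, 433 ± 297 for rFsh and 363 ± 96.45 for rLh (SD, n = 5). Over the 12 fish, without saline 68, it was 147 ± 56.8, 429 ± 342.5 and 385 ± 96.0 CPM (SD, n = 4). The paper reports higher *insl3* after both hormones by RT-qPCR, on testis samples other than those of its RNA-seq. The score cannot tell the share of Leydig cells from RNA per cell. The members of the list did not all lie on the same side of 0. Above it were 5 of 6 after rFsh and 4 of 6 after rLh, the exceptions being *hsd17b3* after both hormones (-0.76 ± 0.33 and -0.42 ± 0.31) and *star* after rLh (-0.03 ± 0.32, beside 0.49 ± 0.32 after rFsh). *star* had 106 ± 56.6 CPM for saline, 148 ± 54.7 for rFsh and 104 ± 22.4 for rLh (SD, n = 5). *hsd17b3* was the faintest of the list, at 0.32 to 0.82 CPM in saline, 0.15 to 0.53 after rFsh and 0.28 to 0.51 after rLh. It counts as much in the score as each other gene. The part of Leydig cell content in the *igfbp5a* difference was not tested.

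**Figure D5:**
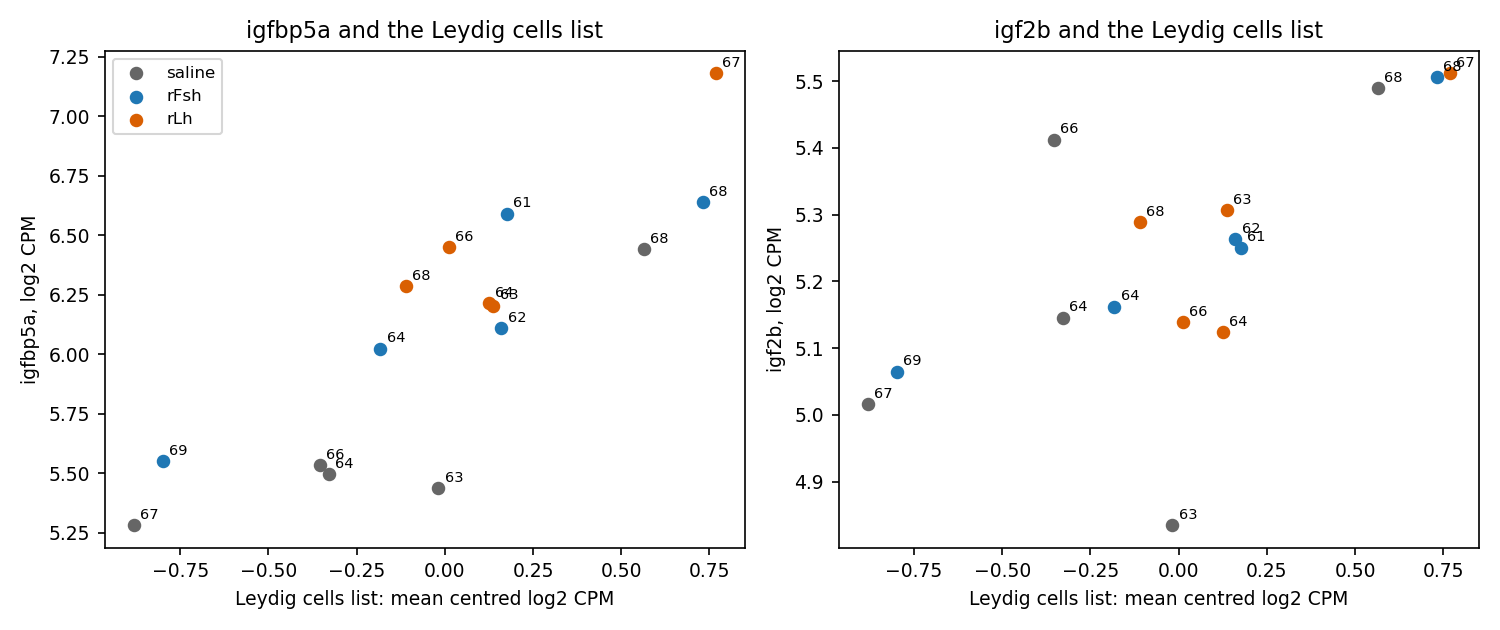
Log2 CPM of a member (vertical axes) against the score of a marker list in log2 units (horizontal axes), 1 point per fish, coloured by group and numbered. *igfbp5a* follows the Leydig cell list (r = 0.853, 15 fish), with rLh 67 at the top right, and *igf2b* follows it less closely (r = 0.664), which did not pass after adjustment.

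The levels of *igf1* lay on both sides of a gap, which limits any relation over the 15 fish. Among its pairs with the marker lists, that with endothelium passed (r = 0.733, permutation p = 0.0015, adjusted p = 0.045, and rho = 0.768, permutation p = 0.00117, adjusted p = 0.0351). Without the 2 fish of the most extreme score r was 0.611, over the 12 fish 0.682, and with group means removed it was 0.731. Inside the groups (n = 5 fish each) the relation was closest in rFsh and looser in saline and rLh. Of the 12 endothelium symbols, 10 were in the table and tested. After each hormone 6 of these 10 lay above 0, with median log2 fold changes of 0.02 and 0.01. *kdr*, named here after its values were seen, had -0.87 ± 0.35 after rFsh and -0.07 ± 0.34 after rLh (edgeR adjusted p = 0.2285 and 0.948). DESeq2 over 12 fish called it lower after rFsh, where it called 5.87% of all genes, and no other gene of the list there. No other list passed for *igf1*, and the part of endothelial cells in its level was not tested. Liver and plasma markers, of interest because the liver makes most Igf1, summed to 97.5 to 185 CPM in saline, 73.5 to 112 after rFsh and 84.8 to 135 after rLh, with 10 of 12 genes in the table tested and 1 at 0 in every fish. The sums and the single genes did not go the same way after rFsh, where 7 of the 10 genes lay above 0 with a median log2 fold change of 0.24, while after rLh 5 did with a median of 0.02. edgeR called none of the 10 against saline. *fgg*, the gamma chain of fibrinogen, had 0.526 to 1.03 CPM in saline, 0.305 to 4.71 after rFsh and 0.769 to 0.812 after rLh. Its log2 fold change was 1.58 ± 0.51 after rFsh and 0.06 ± 0.63 after rLh (edgeR adjusted p = 0.168 and 0.975). DESeq2 over 15 fish called it higher after rFsh, where it called 2.93% of all genes. *f2*, which encodes prothrombin, had 1.12 ± 0.38 and -0.13 ± 0.43 (edgeR adjusted p = 0.176 and 0.915). Over 12 fish DESeq2 called 1 gene of the list, *apobb.1*, lower after rLh, where it called 10.6% of all genes. These 3 genes were named after their values were seen. The part of liver or plasma RNA in the *igf1* levels was not tested.

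The genes whose level over the 15 fish was most like that of each member were listed as a description. For *igfbp5a* they were *ablim3*, an actin-binding LIM protein gene (r = 0.960), *porb*, the P450 oxidoreductase that passes electrons to steroidogenic P450 enzymes (0.955), and LOC122769525 (0.954), which the study's annotation matches to the human nuclear receptor gene NR5A2. In saline, *porb* stood at 216, 160, 176, 155 and 310 CPM (63, 64, 66, 67 and 68), so saline 68 was the highest of them, as in *igfbp5a*, to which *porb* was matched over these same fish. The log2 fold change of *porb* was 0.49 ± 0.23 after rFsh and 0.64 ± 0.23 after rLh (edgeR adjusted p = 0.290 and 0.344). For *igf2b* they were LOC122783345 (0.828), *mmp14b*, a membrane-bound matrix protease (0.817), and *areg*, an epidermal growth factor receptor ligand (0.790). For *igfbp2a* they were *plekhf2* (0.870), *esrrgb*, an orphan nuclear receptor (0.859), and *cacng2a* (0.826), and for *igfbp6b* *ndnf*, a secreted factor (0.896), LOC122757987 (0.881) and *prkab1b*, a subunit of AMP-activated kinase (0.871). For *igf1*, whose levels lay on both sides of a gap, they were LOC122762698, *klhl6* and LOC122782841, and no r is given. Of the other 4 members, *igfbp5a* had the closest 3 genes.

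The rest of the pathway was counted from 6 lists, and edgeR called 0 of their genes in each of the 3 comparisons, over 15 fish and over 12. DESeq2 called 1 of them over 15 fish, *rptor* after rFsh, where it called 2.93% of all tested genes. The calls it made over 12 fish are named below. Of the 3 receptor genes of 8 listed symbols (*igf1ra*, *insra* and *igf2r*), none had an unadjusted p below 0.05 against saline, which 17.2% of all tested genes had after rFsh and 13.2% after rLh. In rLh against rFsh 1 of the 3, *insra*, was higher with such a p, which 9.91% of all tested genes had. *insra* had 40.3 ± 1.66 CPM for saline, 37.0 ± 5.60 for rFsh and 44.0 ± 4.41 for rLh (SD, n = 5), given here after its values were seen. *igf2r*, the receptor that takes up Igf2 for breakdown in mammals, had a mean of 137 ± 13.5 CPM for saline, 149 ± 8.52 for rFsh and 151 ± 5.72 for rLh (SD, n = 5), with log2 fold changes of 0.12 ± 0.07 and 0.14 ± 0.07 (edgeR adjusted p = 0.378 and 0.391). *igf1ra*, a signalling receptor, had 42.6 ± 4.03, 49.9 ± 12.9 and 44.1 ± 4.46 CPM, and log2 fold changes of 0.23 ± 0.14 and 0.05 ± 0.14 (edgeR adjusted p = 0.417 and 0.893). *igf2r* and *igf1ra* both had smaller fold changes than *igfbp5a* after either hormone.

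Of 10 tested adaptor genes, 0 had an unadjusted p below 0.05 against saline, and their median log2 fold change was -0.01 after both hormones. Of 24 genes of PI3K, Akt, mTOR and Foxo, 1 was higher and 2 were lower after rFsh with an unadjusted p below 0.05, and 0 and 2 after rLh, with medians of -0.05 and 0.04. These 3 of 24 and 2 of 24 genes were no larger a share than the 17.2% and 13.2% of all tested genes. The higher one was the kinase gene *akt2*, at 0.34 ± 0.16 after rFsh (edgeR adjusted p = 0.281), and the lower ones were *rptor* with *tsc1b* after rFsh and with *pdpk1b*, the kinase that activates Akt, after rLh (-0.14 ± 0.06, edgeR adjusted p = 0.372). The one with the smallest p was *rptor*, the scaffold of mTOR complex 1. It had 84.8 to 95.3 CPM in saline, 68.97 to 84.7 after rFsh and 65.4 to 80.5 after rLh, so the saline fish lay above all treated fish. Of all tested genes, 1.72% had no overlap in one direction or the other after rFsh and 2.1% after rLh. Its log2 fold change was -0.29 ± 0.07 after rFsh and -0.28 ± 0.07 after rLh (adjusted p = 0.118 and 0.344 by edgeR), which did not pass, while DESeq2 called it lower after rFsh over 15 fish and after both hormones over 12. *tsc1b*, a brake on mTOR complex 1, had -0.23 ± 0.09 and -0.17 ± 0.09 (edgeR adjusted p = 0.208 and 0.410), and DESeq2 called it lower after both over 12 fish, where it also called *tsc1a*, the other copy of this gene, higher in rLh than in rFsh. *akt2*, *pdpk1b* and *tsc1a* were named after their values were seen. Of all genes, DESeq2 over 12 fish called 5.87% after rFsh, 10.6% after rLh and 3.19% between the hormones.

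Outside the cell, 6 modulators of Igf availability were tested, and 0 had an unadjusted p below 0.05 against saline. Of all tested genes, 17.2% had such a p after rFsh and 13.2% after rLh, which holds for the counts below as well. *pappaa*, a protease known in mammals to cut binding proteins, had log2 fold changes of 0.37 ± 0.19 after rFsh and 0.12 ± 0.19 after rLh (edgeR adjusted p = 0.329 and 0.809). DESeq2 over 12 fish called it higher after rFsh, where it called 5.87% of all genes. Of 7 genes from the growth hormone receptor to *igf1*, 0 lay above 0 after rFsh and 1 after rLh. Of all tested genes, 51.1% and 51.6% did. The median log2 fold change of the 7 was -0.12 after rFsh and -0.10 after rLh. With an unadjusted p below 0.05, 1 of the 7 was lower after rLh. This was *cish*, a feedback inhibitor of cytokine receptors, at -0.39 ± 0.15 (adjusted p = 0.349 by edgeR). DESeq2 over 12 fish called it lower after rLh, where it called 10.6% of all genes. Of the 3 genes of proteins that bind *igf2* messenger RNA, 1 was higher after both hormones with an unadjusted p below 0.05, while the median of the 3 was -0.34 after rFsh, with 1 of 3 above 0, and 0.12 after rLh, with 3 of 3. *igf2bp1* had 47.7 ± 12.7 CPM for saline, 67.7 ± 15.3 for rFsh and 71.3 ± 10.9 for rLh (SD, n = 5), with log2 fold changes of 0.50 ± 0.18 and 0.58 ± 0.18 (adjusted p = 0.200 and 0.344 by edgeR), while the log2 fold change of *igf2b* itself was 0.06 and 0.08. DESeq2 over 12 fish called *igf2bp1* higher after both hormones, where it called 5.87% and 10.6% of all genes. *igf2bp2a* had 22.8 ± 4.05, 17.9 ± 6.48 and 24.7 ± 2.82 CPM (SD, n = 5), with log2 fold changes of -0.34 ± 0.19 and 0.12 ± 0.19 (adjusted p = 0.376 and 0.804 by edgeR).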

How the data were processed

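Testis RNA of 15 males was sequenced by the authors with a modified SMARTseq2 protocol as pairs of 100 bases, without molecular identifiers. Per the study's methods, reads were trimmed with Cutadapt 3.4, checked with FastQC 0.11.9, aligned to IFAPA_SoseM_1 with Subread 2.0.1 and counted per gene with RSubread at its defaults, without strand, in R 4.0.4. The deposited values are whole-number counts of reads per gene, not normalized. The study itself tested 12 fish with DESeq2. Those 12 were inferred from mean counts per gene in its supplementary tables, as the closest of 125 ways to leave out 1 fish per group. No label names them.

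Here all 15 fish and 3 groups entered 1 fit of edgeR 4.0.16 (R 4.3.3): TMM factors, genes with at least 50 counts in at least 1 fish, two-sided quasi-likelihood F tests, and Benjamini-Hochberg adjustment over 21227 genes. CPM use the TMM factors. Alternatives were DESeq2 1.42.0, other scalings and filters, robust dispersion, the fish number as a block, only the groups compared, the 12 fish, and each fish left out. Correlations used 100000 permutations (Python 3.11.15, numpy 2.4.6, scipy 1.17.1). The scripts were tested on simulated counts. Each fish is a separate animal with 1 library, so the group tests set differences against the spread between fish. That spread holds variation of animal, tissue piece and library, which cannot be told apart. Intervals of fold changes come from the edgeR fit.

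Every member was named, as were up to 2 genes per pathway list with the smallest unadjusted p against saline and the 3 genes most like each member. The members, the gene lists and these rules were chosen with earlier results of these data known. Levels per exon length had been planned and were not computed, since no exon lengths were at hand. Gene places come from RefSeq's table for IFAPA_SoseM_1.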

Additional observations from a re-analysis of the deposited data

Results flagged for a closer look

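Each of the 15 sets of 5 fish (5 genes in 3 groups) was searched for a fish whose gap to its nearest neighbour, divided by the range of the set, was over 0.71, Dixon's 95% value for 5 samples. Chance gives about 1 such set in 20 (5%), and 2 were found, both in *igfbp5a*. Saline 68 had 86.9 CPM where the other saline fish had 38.9 to 46.3 (gap over range 0.846). rLh 67 had 145 CPM where the other rLh fish had 73.7 to 87.4 (gap over range 0.808). Both fish also had the highest Leydig cell score of their groups, 0.564 and 0.769, and the part of this in their *igfbp5a* level was not tested.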

How the results depend on the processing

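Of 405 alternative fold changes of the 5 genes (27 settings), 387 kept their sign and their side of the threshold, 1 kept its sign with no adjusted p given (*igf1* after rLh with DESeq2 over 12 fish), 14 turned sign and 3 passed the threshold that the reported value missed. Those 3 were *igfbp5a* with DESeq2 over the 12 fish after rFsh (0.83) and after rLh (1.13), and without saline 68 and rLh 67 after rFsh (0.80). Each of the 3 gave 1 member called where the reported count was 0. The setting without saline 68 and rLh 67 was not planned. Its fish were picked by their *igfbp5a* levels, so its call is no separate support.

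*igf1* after rFsh (reported -0.01) was 0.037 with DESeq2 and -0.22 to 0.17 with single fish left out, *igf2b* after rFsh -0.025 to 0.137, and *igf2b* in rLh against rFsh -0.0393 to 0.0936 with single fish left out and -0.0393 without saline 68 and rLh 67. With the fish number as a replicate block, *igfbp2a* after rFsh was -0.17, *igf2b* in rLh against rFsh -0.021 and *igfbp6b* in that comparison -0.12. Fish of rLh and saline with the same number did not regularly deviate together. Their r ran from -0.246 to 0.484 for 5 pairs, beside -0.368 to 0.292 for the 20 pairs of unlike number. The highest value was that of the fish numbered 63, and 1 of 5 rLh fish was closest to its own number. The numbers were therefore not taken as pairing the samples in the reported fit. *igfbp5a* under the block was 0.59 after rFsh and 0.83 after rLh (edgeR adjusted p = 0.498 and 0.376).

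The number of all genes called moved far more. After rFsh (reported 10) it was 6 with upper quartile factors, 5 with RLE factors, 622 with DESeq2, 1 with 50 counts in at least 5 fish, 28 with the replicate block, 3 with only the groups compared, 1242 with DESeq2 over 12 fish, 271 without saline 68 and rLh 67, and 1 to 998 with single fish left out (998 without rFsh 69 and 633 without saline 68). After rLh (reported 0) it was 47 with DESeq2, 2 with the block, 2237 with DESeq2 over 12 fish and 0 to 2 with single fish left out. Between the hormones (reported 0) it was 135, 12 and 675 in the same order, 3 with edgeR over 12 fish and 0 to 20 with single fish left out. The cause of these shifts was not tested. *igf1* rests on 30 to 103 reads per fish, and the part of this depth in the width of its intervals was not tested. Levels per exon length were not run.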
